A study of Mus musculus with 6 samples.

Results

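Healthy colon and healthy liver were compared through the 2 control arrays, out of 6 arrays in the study. The members were chosen by their labels: the array of colon RNA and the array of liver RNA from the control group (CON). The animals were male C57BL6/J mice, 7 weeks old, kept throughout on a basal diet and plain water. The other 4 arrays came from a group given 1.5% (w/v) dextran sodium sulphate in the water after 1 week of plain water (DSS), a colitis model, and a group given the same polymer and a diet with 2% parsley (DSSPAR). For each tissue the RNA of all 7 animals in a group was combined and read on 1 Affymetrix mouse expression array. A difference between the 2 arrays is therefore a difference between 2 pools, with no replicate and no test, so that its precision is bounded by having 1 array per tissue. RNA came from whole excised tissue, so fewer cells of a type and less RNA per cell cannot be told apart.

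The colon is lined by an epithelium of absorptive colonocytes, goblet cells that secrete mucus, and scattered hormone-secreting and tuft cells, renewed from crypt stem cells and wrapped in smooth muscle with its own nerves. The liver consists mostly of hepatocytes, which make the proteins of blood plasma, bile acids and urea, hold glucose in reserve and detoxify drugs. Both organs arise from the embryonic endoderm and share a set of transcription factors, among them those of the HNF4 and FOXA families.

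The deposited intensities of the 2 tissues had been scaled differently. After trimming 2% of the values from both tails, the average was 106.2 in control colon and 500.0 in control liver, while medians were 27.3 and 107. Intensities were therefore not compared across tissues, and each probe set was given its percentile rank among the 45101 probe sets of its own array, from 0 for the dimmest to 100 for the brightest. A gene entered if a probe set carrying its symbol alone lay above the median of at least 1 of the 2 arrays, and differences are colon minus liver in percentile points. The dim end was less secure in liver. Of 44 probe sets for olfactory receptors, genes that neither organ is known for, 1 lay above the median in control colon and 11 did so in control liver, with highest ranks of 53.2 and 63.8. The signal ratio of the 3' to the 5' actin control was 1.61 in colon and 3.55 in liver. The part of these features in the tissue differences was not tested.

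Of 13205 genes measured, 1242 ranked at least 25 points higher in colon and 1456 at least 25 points higher in liver, shares of 9.41% and 11.0%. Together these called genes made up 20.4%, while 4606 genes lay within 5 points. Above the median were 9639 genes in both arrays, 1424 in colon alone and 2142 in liver alone. At a distance of 40 points the counts were 644 and 683. The smallest difference called was 25.05 points on the colon side and the largest not called 24.98. Pairs of probe sets for the same gene gave tissue differences that disagreed with a robust SD of 9.38 points, over 5771 genes, and 13.3% of these pairs disagreed by 25 points or more. Among called genes with several probe sets, 295 of 336 on the colon side and 233 of 247 on the liver side had all of them on that side.

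**Figure D1:**
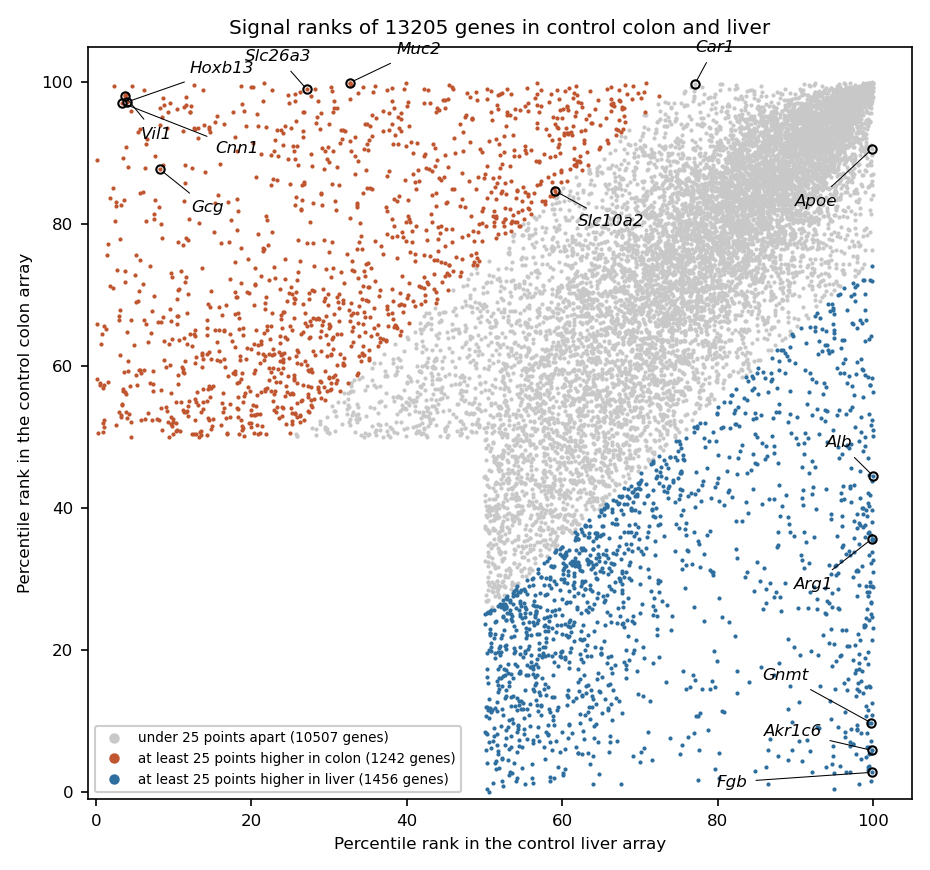
Percentile rank of each of 13205 genes in the control liver array (x axis) and the control colon array (y axis). Red points mark the 1242 genes at least 25 points higher in colon, blue points the 1456 at least 25 points higher in liver and grey points all others, and the empty corner holds genes under the median of both arrays, which were left out.

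Defining markers of hepatocytes and colonocytes matched the labels. All 8 hepatocyte markers ranked between 99.7 and 99.98 in the liver array, and in the colon array their median rank was 35.6, with 2 of 8 above the median, the carrier gene Ttr at 97.9 and the urea cycle gene Cps1 at 74.1. All 8 colonocyte markers lay between 94.8 and 99.8 in colon. Their median rank in liver was 36.3, and 3 were above the liver median: the water channel gene Aqp8 at 96.9, the carbonic anhydrase gene Car1 at 77.1 and the intestinal homeobox gene Cdx2 at 63.05. In colon 5 of 6 goblet cell and 6 of 6 smooth muscle markers were called, but 1 of 4 for neurons and glia and 1 of 4 for B and plasma cells. In liver 5 of 5 Kupffer cell, 3 of 4 sinusoidal endothelial and 2 of 3 stellate cell markers were called. Of exocrine pancreas genes, which could reveal neighbouring tissue, the 4 defining markers ranked no higher than 32.3 in control colon and 61.5 in control liver. Of a wider list of 22 pancreatic enzyme and granule genes, 15 were on the array under 1 symbol and 6 passed the entry rule. Over these 6 the median ranks were 65.4 in colon and 60.9 in liver, values that the entry rule raises by leaving out dim genes. The 6 include Zg16, a colon gene, the elastase gene Cela1 (98.9 and 95.7) and the colipase gene Clps, which was called higher in colon (80.4 and 53.5). Also among the 6, Cela2a (19.1 and 60.4) and Prss2 (32.3 and 61.5) were called higher in liver. Their liver ranks lay within the range of olfactory receptor probe sets there. The part of pancreatic RNA in the results was not tested.

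The genes that marked each tissue most sharply were the 20 of highest rank there that lay under the median of the other array with every probe set agreeing in direction. In colon 3 of the 20 were predicted gene models, and the other 17 ranked between 99.03 and 99.98 in colon and between 2.39 and 45.99 in liver. Mucus and its partners came first. Muc2, the gel-forming mucin of the colon, read 7984 in colon (rank 99.96) and 55.2 in liver (rank 32.7), and Zg16, a lectin of the mucus layer, read 8247 (rank 99.98) and 74.3 (rank 39.9). Muc3, a membrane mucin, had ranks of 99.9 and 32.6, and Clca1, a mucus-processing protease of goblet cells, 99.6 and 12.7. A top colon rank and a place under the liver median were fixed by the choice of the set. What the set adds is that it held these genes of the mucus barrier.

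Other colon genes of this set serve absorption and the epithelial surface. Slc26a3, which exchanges luminal chloride for bicarbonate, ranked 99.04 in colon and 27.1 in liver, and Car4, a membrane carbonic anhydrase, 99.1 and 42.2. Guca2a, which encodes the gut peptide guanylin, ranked 99.3 and 20.2. The keratin gene Krt19 ranked 99.6 and 18.7 and the claudin gene Cldn7 99.4 and 34.4. Dmbt1, a scavenger receptor-like protein that binds bacteria, ranked 99.9 and 21.6. Sval1 (99.5 and 2.39) and Mptx1, a pentraxin gene (99.5 and 4.61), had the widest gaps of the set, 97.2 and 94.9 points. In the DSS and DSSPAR arrays 16 of the 17 genes were again at least 25 points higher in colon. The exception was Spink1, a trypsin inhibitor gene, whose liver rank was 45.8 in CON, 92.2 in DSS and 68.98 in DSSPAR.

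All 20 liver genes chosen in the same way had names, ranked between 99.79 and 99.998 in liver and between 2.77 and 44.6 in colon, and were at least 25 points higher in liver in all 3 pairs of arrays. Alb, for serum albumin, read 87388 in liver (rank 99.97) and 20.9 in colon (rank 44.6). Fabp1, the fatty acid binding protein of liver, read 122680 (rank 99.998) and 12.05 (rank 32.7). Fgb, a fibrinogen chain, read 67086 (rank 99.9) and 0.681 (rank 2.77), a gap of 97.1 points. Plasma proteins made up 12 of the 20: besides Alb and Fgb the set held the fibrinogen gene Fgg, the apolipoprotein genes Apoa1, Apoc1, Apoc3 and Apoh, the protease inhibitor genes Serpina1b, Serpina1c, Serpinc1 and Pzp, and the heme carrier gene Hpx. Serpina1b and Serpina1c are near-identical copies, and their signals may not be separate. Apart from Fabp1, enzymes made up the remainder, with Bhmt of methionine metabolism, Arg1 of the urea cycle and the drug and steroid enzyme genes Cyp2e1, Cyp3a11, Ugt2b1, Akr1c6 and Sult2a8. Akr1c6 had the second widest gap, with ranks of 99.9 in liver and 5.85 in colon.

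**Figure D2:**
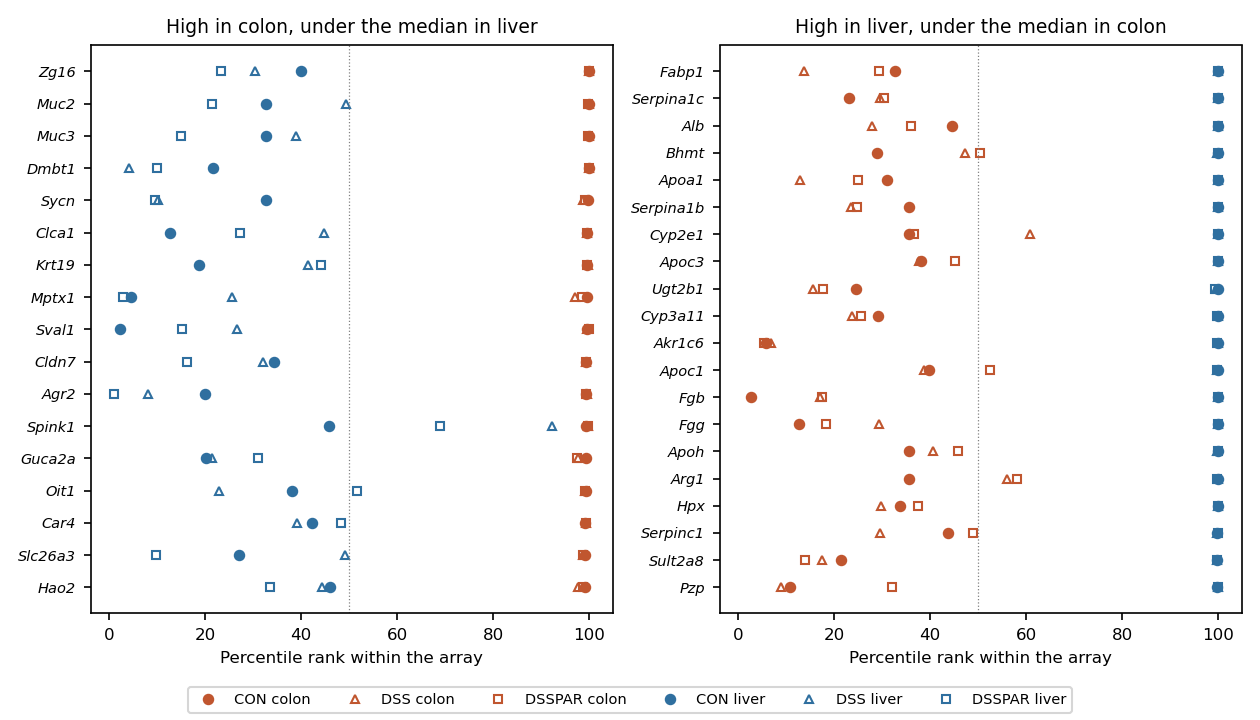
Percentile rank (x axis) in all 6 arrays of the 17 named genes of highest rank in control colon (left) and the 20 of highest rank in control liver (right) that lay under the median (dotted line at 50) of the other control array. Red symbols are colon and blue symbols liver arrays and shapes mark the groups. Spink1 is the gene whose liver ranks reached 92.2, in DSS.

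Promoter sequence is shown for genes that the comparison turned on, as the 150 bases before the RefSeq start on GRCm38.p6, 5′ to 3′ on the gene's strand. Liver and colon genes were shown only if these bases held a searched motif, with cell type markers taken first. That each of them holds a motif was thus fixed by the choice. The liver genes are Alb (chr5:90460720-90460869, plus strand), Serpina1b (chr12:103738190-103738339, minus strand) and Fgb (chr3:83049864-83050013, minus strand), with the HNF1 motif GTTAAT, or its other strand ATTAAC, in capitals, and Cyp2e1 (chr7:140763669-140763818, plus strand) with the TATA box TATAAA.
Alb: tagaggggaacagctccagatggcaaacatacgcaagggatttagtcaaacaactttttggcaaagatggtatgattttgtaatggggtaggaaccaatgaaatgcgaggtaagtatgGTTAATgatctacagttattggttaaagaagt
Serpina1b: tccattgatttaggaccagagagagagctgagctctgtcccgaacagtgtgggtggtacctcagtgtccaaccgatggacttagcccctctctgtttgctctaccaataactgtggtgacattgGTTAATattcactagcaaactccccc
Fgb: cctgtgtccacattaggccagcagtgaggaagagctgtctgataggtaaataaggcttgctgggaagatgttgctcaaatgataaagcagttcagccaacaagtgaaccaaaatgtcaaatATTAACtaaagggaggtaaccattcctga
Cyp2e1: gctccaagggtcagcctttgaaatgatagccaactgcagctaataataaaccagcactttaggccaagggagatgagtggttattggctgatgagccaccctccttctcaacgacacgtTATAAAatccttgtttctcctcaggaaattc
In Alb, Serpina1b and Fgb the HNF1 motif began 32, 26 and 29 bases before the start. HNF1 factors are homeodomain proteins of liver, gut and kidney.

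The colon genes are Slc26a3 (chr12:31438069-31438218, plus strand) and Mptx1 (chr1:174330368-174330517, plus strand), with HNF1 motifs and the letters of the TATA box in capitals (TATAAA in Slc26a3, and in Mptx1 TTTATA, a match on the other strand that begins 82 bases before the start), and Guca2a (chr4:119637582-119637731, plus strand) and Sycn (a secretory granule protein gene, chr7:28540735-28540884, plus strand), with the GATA core AGATAA, here as TTATCT on the other strand. The gene Tpt1, level between the tissues (chr14:75845106-75845255, plus strand), is set beside them with its CG pairs in capitals.
Slc26a3: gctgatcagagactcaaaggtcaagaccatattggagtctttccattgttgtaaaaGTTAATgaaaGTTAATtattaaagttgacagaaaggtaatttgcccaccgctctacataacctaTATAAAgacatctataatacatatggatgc
Mptx1: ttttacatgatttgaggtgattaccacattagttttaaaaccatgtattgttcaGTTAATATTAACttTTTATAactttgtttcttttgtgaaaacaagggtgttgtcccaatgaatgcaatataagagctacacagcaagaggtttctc
Guca2a: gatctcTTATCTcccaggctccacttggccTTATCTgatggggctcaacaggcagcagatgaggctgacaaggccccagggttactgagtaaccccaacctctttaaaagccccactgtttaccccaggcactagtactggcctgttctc
Sycn: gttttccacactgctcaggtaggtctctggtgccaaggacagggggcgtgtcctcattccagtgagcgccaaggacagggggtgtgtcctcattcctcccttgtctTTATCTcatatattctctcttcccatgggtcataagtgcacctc
Tpt1: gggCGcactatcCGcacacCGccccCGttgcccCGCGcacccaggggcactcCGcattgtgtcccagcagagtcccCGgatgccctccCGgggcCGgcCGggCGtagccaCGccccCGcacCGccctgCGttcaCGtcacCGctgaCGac
The window of Tpt1 held 19 CG pairs, against 1 in Slc26a3, 0 in Mptx1, Guca2a and Fgb, and 2 each in Alb, Serpina1b, Cyp2e1 and Sycn. Tpt1 was shown without the motif condition, and the motifs found in the others hold no CG. The windows shown are thus no fair sample of CG content.

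CG content was also compared in whole sets of genes, chosen without regard to motifs. RefSeq promoters of 300 bases, 250 before the start and 50 after it, were matched for 10625 of the 13205 genes. The ratio of observed to chance-level CG pairs had a median of 0.739 over all measured genes, 0.600 in genes higher in colon, 0.364 in genes higher in liver and 0.812 in genes within 5 points. It was under 0.4 in 20.4% of measured genes, in 54.5% of the 132 genes higher in colon with a colon rank above 95, and in 72.7% of the 198 genes higher in liver with a liver rank above 95. Over all 27025 promoters the median ratio was 0.389 and 51.0% were under 0.4. Bright genes higher in either organ thus had CG-poor starts more often than measured genes at large, though for colon at a share near that of all promoters, and genes level between the tissues had them in 9.18% of cases.

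Motifs were searched on both strands in the same windows. The HNF1 motif was present in 7.20% of all 27025 promoters, in 4.47% of measured genes, in 18.2% of the bright liver genes (36 of 198) and in 9.85% of the bright colon genes (13 of 132). Among promoters with a CG ratio under 0.4 alone, the shares were 8.30% of 2169 measured genes, 21.5% of 144 bright liver genes and 16.7% of 72 bright colon genes. The TATA box was in 14.2% of all promoters, 8.08% of measured, 21.7% of bright liver and 20.5% of bright colon promoters, and the GATA core in 11.4%, 6.87%, 16.2% and 8.33%. The HNF4 core CAAAGTCC was in 1.44%, 1.57%, 5.05% (10 genes) and 1.52% (2 genes). The CDX core CAATAAA, named for the intestinal CDX factors, was in 4.84%, 2.79%, 4.55% and 2.27%. The C/EBP palindrome TTGCGCAA was in 0.185% of all promoters and in none of the bright liver or colon genes. A match is a description of letters, and AT-rich motifs and CG-poor promoters share their base composition.

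Genes for proteins secreted into plasma ranked higher in liver almost without exception. Of 21 genes for plasma carriers and acute phase proteins, 20 were at least 25 points higher in liver and none in colon (median -64.3, against -0.92 over all genes). Orm1, an acute phase glycoprotein, ranked 3.71 in colon and 99.4 in liver, and Ahsg, fetuin-A, 14.8 and 99.7. The remaining gene was Ttr, the carrier of thyroid hormone and retinol, with ranks of 97.9 and 99.98. All 18 coagulation and fibrinolysis genes were higher in liver by at least 46.2 points in the control pair and were called in the other 2 pairs as well. They included Klkb1, plasma prekallikrein (1.11 and 98.2), F12 (2.84 and 96.998), F10 (8.88 and 97.9) and F9 (20.7 and 97.7), factors of the clotting cascade. Of 14 complement genes 12 were higher in liver, with C8a, a subunit of the membrane attack complex, at 3.13 and 99.3 and the lectin gene Mbl2 at 17.995 and 99.4. Of 14 genes for apolipoproteins and lipoprotein assembly 11 were higher in liver, among them Apoc4 (7.15 and 99.7) and Apoa4 (17.2 and 97.7).

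Of the 20, 18 were called in all 3 pairs, and the exceptions were Hp and Cp. Hp, for haptoglobin, which binds free haemoglobin, ranked 29.03 in control colon and 99.6 in control liver, a gap of -70.6 points. For Hp the ranks were 89.1 and 99.9 in DSS and 71.7 and 99.7 in DSSPAR. The liver ranks lay within 1 point of each other, and the gap of Hp was -10.8 points in DSS and -27.97 in DSSPAR, with the colon arrays apart from each other. Cp, the copper carrier ceruloplasmin, stood at -27.3 points in CON, -11.5 in DSS and -15.3 in DSSPAR.

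Within hepatic metabolism the difference varied between pathways and between their steps. In the urea cycle 4 of 9 genes were higher in liver and none in colon (median -24.4): Arg1, arginase (35.7 and 99.9), Ass1, argininosuccinate synthase (32.2 and 76.7), Nags, which makes the activator of the first step (60.8 and 89.2), and Cps1 (74.1 and 99.8). Cps1 and Otc, the enzymes of the first steps in mitochondria, also ranked above the colon median (74.1 and 81.5), and Glul, glutamine synthetase, ranked 98.996 in colon and 98.4 in liver. Amino acid breakdown was more sharply divided, with 17 of 22 genes higher in liver (median -65.4), such as Gnmt, glycine methyltransferase (9.73 and 99.8), and Mat1a, the hepatic enzyme of S-adenosylmethionine synthesis (12.1 and 99.1). For gluconeogenesis and glycogen 7 of 11 genes were higher in liver (median -35.4). G6pc, the phosphatase that releases glucose, ranked 7.72 and 96.4, whereas Pck1, the carboxykinase of gluconeogenesis, ranked 90.4 and 98.4.

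Bile acids and drug metabolism followed the same line. Of 10 genes of bile acid synthesis 7 were higher in liver (median -58.2), including Cyp7a1, the rate-limiting enzyme (36.1 and 95.3), and Cyp8b1, which sets the share of cholic acid (20.5 and 96.9). The hepatocyte carriers of bile acids and organic anions were higher in liver in 9 of 12 cases (median -58.2), with the uptake carrier genes Slco1a1 (17.4 and 98.2) and Slc10a1 (31.9 and 98.6) and the bile salt export pump gene Abcb11 (35.8 and 97.5). Of 18 hepatic cytochrome P450 genes 13 were higher in liver in all 3 pairs (median -58.9), for example Cyp2j5 (4.97 and 99.03) and Cyp1a2 (21.4 and 98.3). Genes listed as intestinal P450s fell on both sides. Cyp2c65 ranked 97.4 in colon and 25.6 in liver, Cyp2d34 93.9 and 35.2, and Cyp2s1 92.3 and 33.4, and these 3 of 9 intestinal P450 genes were higher in colon in all 3 pairs. Cyp1b1 (19.9 and 60.01) and Cyp1a1 (22.5 and 59.2), from the same 9, were called higher in liver in the control pair, though not in all 3 pairs. The list's median was 7.12 points in CON, -6.67 in DSS and -3.65 in DSSPAR.

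Genes of intestinal bile acid handling differed between the control pair and the other pairs. Slc10a2 encodes the transporter that takes up bile acids from the lumen, and Slc51a and Slc51b the exporter to the blood side. Slc10a2 ranked 84.7 in control colon and 59.1 in control liver, but 39.1 and 75.9 in DSS and 7.53 and 80.2 in DSSPAR. The tissue difference was thus 25.7 points in CON, -36.7 in DSS and -72.7 in DSSPAR. Slc51a stood at 20.6 points in CON, -16.6 in DSS and -34.5 in DSSPAR, with colon ranks of 90.7, 45.7 and 28.5. Its partner Slc51b kept a higher rank in colon in all 3 pairs (28.6, 44.9 and 39.1 points). Of 5 such genes 3 were called higher in colon in the control pair, with a median of 25.7 points in CON, -3.02 in DSS and -2.94 in DSSPAR.

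Genes of the colonic epithelium were higher in colon by cell type. Of 22 goblet cell and mucus genes 20 were at least 25 points higher in colon, none in liver (median 52.9), and all 20 were called in the other 2 pairs. Beside Muc2 and Clca1 they included Fcgbp, a mucus-linking protein (98.9 and 13.8), Agr2, a disulphide isomerase needed to fold mucin (99.3 and 19.97), Ern2, the stress sensor of mucous cells (91.3 and 6.52), and Retnlb (83.3 and 11.3). The trefoil peptide gene Tff3, a goblet marker, ranked 99.8 in colon and 91.1 in liver. Of 24 brush border and surface genes 19 were higher in colon and 1, Anpep, higher in liver (median 47.0). Cdh17, an adhesion protein of intestinal epithelium, ranked 98.3 and 3.79, and Vil1, which bundles actin in microvilli, 98.1 and 3.75. Gucy2c, the receptor of guanylin, ranked 93.7 and 14.6. Anpep, an aminopeptidase better known from small intestine, ranked 29.7 and 62.6.

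Transport genes were less exclusive. Of 22 genes for absorption and ion transport 11 were higher in colon and none in liver (median 26.2). Slc5a8, a carrier of short-chain fatty acids, ranked 97.8 in colon and 8.70 in liver, Slc9a2, a sodium-proton exchanger, 95.1 and 8.48, the chloride channel gene Cftr 93.8 and 21.9, and Atp12a, the colonic proton pump, 99.02 and 28.2. Scnn1g, the gamma subunit of the epithelial sodium channel, ranked 66.3 and 8.03. Hormone genes of enteroendocrine cells, 19 on the array, were higher in colon in 14 of 17 measured cases and in liver in 1 (median 43.8). Chgb, a granule protein, ranked 96.2 and 10.4, Gcg, the precursor of glucagon-like peptides, 87.8 and 8.26, and Nts, neurotensin, 83.2 and 2.59. Chgb, Gcg and Nts lay under the liver median and entered through the colon array alone, which fixed their direction. Pyy and Insl5, hormones of colonic L cells, ranked 95.8 and 94.7 in colon and 52.9 and 50.99 in liver. Pax6, the gene of the list higher in liver, ranked 28.3 and 66.6 in CON, and its differences in the other pairs were 3.77 and -7.63. Of 8 tuft cell genes that passed the entry rule, from 11 on the array, 3 were higher in colon and none in liver (median 2.26). By any amount 4 ranked higher in colon and 4 in liver. The list ran from Rgs13 (71.9 and 3.72) to Pou2f3 (46.0 and 65.7), Trpm5 (48.0 and 69.3) and Gfi1b (26.1 and 50.98).

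Junctions and keratins leaned toward colon, with particular members far apart. Of 25 genes 8 were higher in colon and 1 in liver (median 8.14), beside 9.41% and 11.0% of all genes. The other 16 differed by less than 25 points, and 24 of the 25 ranked higher in colon by any amount. The colon-high members included the claudin genes Cldn23 (90.9 and 3.92), Cldn8 (95.8 and 26.7) and Cldn7, and the keratin genes Krt19, Krt20 (98.8 and 30.3) and Krt7 (91.2 and 24.1). The liver-high member was another claudin, Cldn1, at 33.4 and 90.7. Of 11 genes of mucosal defence 4 were higher in colon in all 3 pairs, the lectin genes Reg3g (80.4 and 6.45) and Reg3b (97.7 and 59.6), Dmbt1 and the chemokine gene Ccl28 (95.4 and 52.95). Lcn2, an iron-sequestering lipocalin, was called higher in liver (23.8 and 67.9), and the list's median was 0.92. Crypt stem cell and Wnt target genes had a median of 4.59 points. Of 15 such genes 4 were higher in colon and 1 in liver, beside the same 9.41% and 11.0% of all genes. The receptor gene Ephb3 ranked 69.4 and 25.6 and Notum, a secreted Wnt inhibitor, 49.8 and 78.2.

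**Figure D3:**
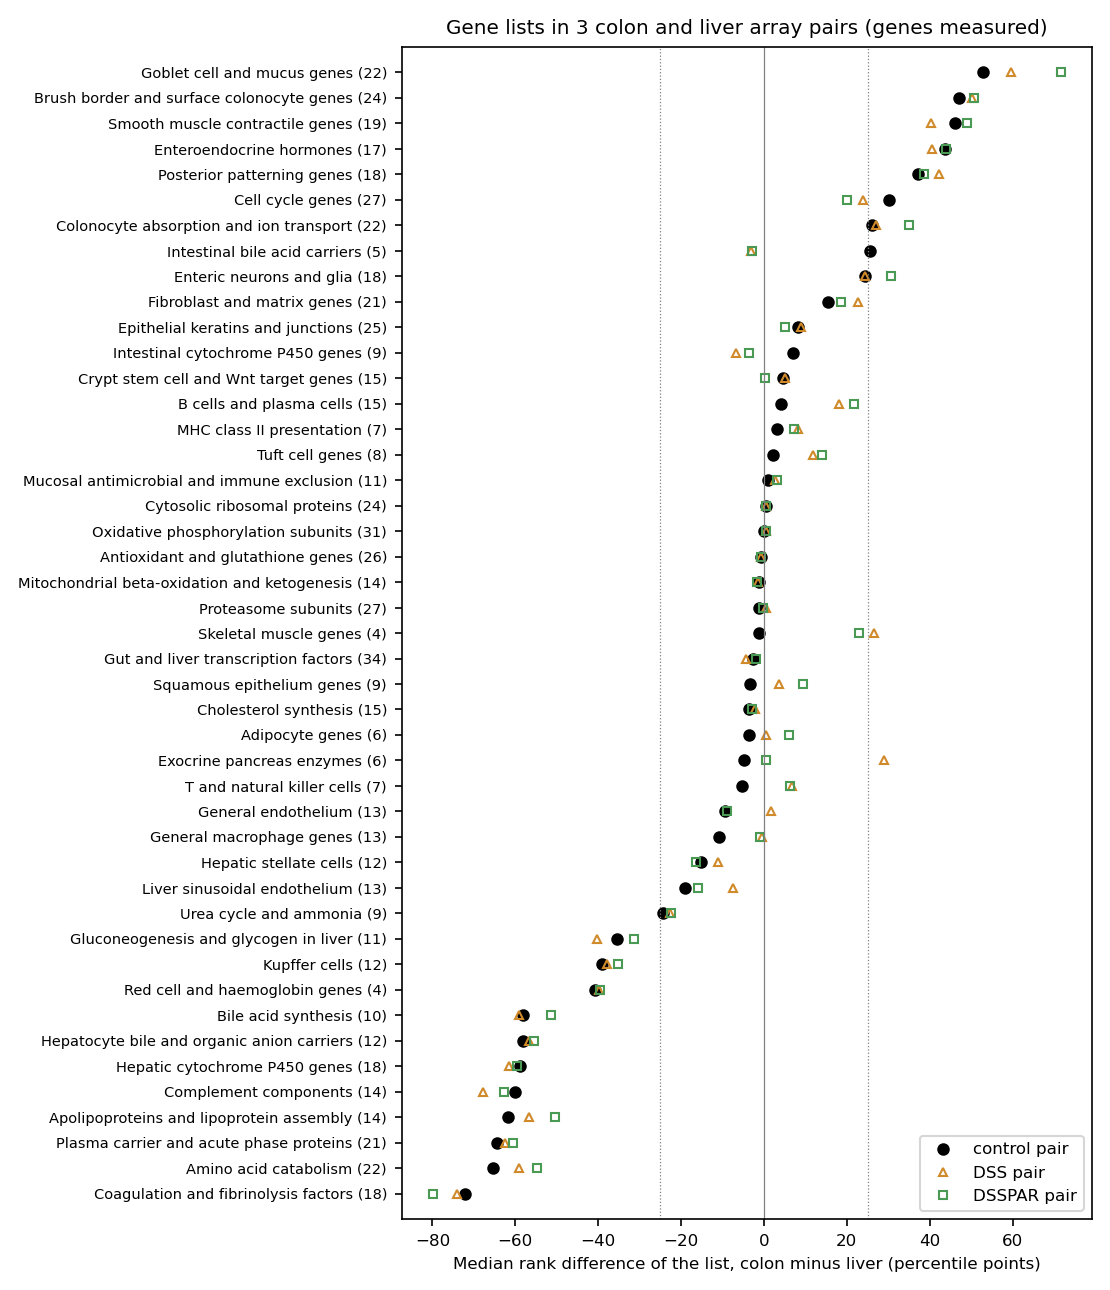
Median rank difference of each gene list with at least 4 measured genes, colon minus liver in percentile points (x axis), in the control pair (black circles), the DSS pair (triangles) and the DSSPAR pair (squares), with the number of genes in parentheses and dotted lines at 25 points either way. Coagulation genes lie at -72.2 and goblet cell genes at 52.9 in the control pair, and the median over all genes is -0.92.

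The layers around the colonic epithelium were visible as well. Of 19 smooth muscle genes 13 were higher in colon and none in liver (median 46.2). Cnn1, calponin, ranked 97.1 in colon and 3.34 in liver, Myl9, a regulatory myosin light chain, 98.96 and 6.17, and Myh11, smooth muscle myosin, 98.3 and 25.7. Of 18 genes of enteric neurons and glia 8 were higher in colon and 2 in liver (median 24.3), with the neuropeptide genes Vip (89.9 and 21.2) and Tac1 (90.3 and 25.4). The 2 on the liver side, Gfap (22.6 and 62.5) and Npy (31.7 and 64.02), were not called again in both other pairs. The 4 defining neuron and glia markers on the array ranked 46.4 to 66.2 in colon and 29.3 to 63.4 in liver. Kit and Ano1, markers of the pacemaker cells of Cajal, ranked 85.5 and 97.8 in colon and 26.6 and 56.5 in liver. Kit stood at 58.9 points in CON but 9.31 in DSS and 13.1 in DSSPAR, where its liver ranks were 70.6 and 67.04. Ano1 stood at 41.3, 37.3 and 39.1 points. Matrix genes of fibroblasts were nearer to level (5 of 21 higher in colon, none in liver, median 15.5), with Mgp, which inhibits calcification, at 87.8 and 42.9.

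Genes of the resident non-parenchymal cells of liver leaned toward liver in turn, by the medians of their lists. Of 12 Kupffer cell genes 7 were higher in liver (median -39.0), led by the lectin receptor gene Clec4f (2.71 and 94.95), the secreted gene Cd5l (6.70 and 97.4) and Vsig4, a complement receptor (26.7 and 94.4). Of 13 sinusoidal endothelial genes 6 were higher in liver (median -19.1), including Clec1b (19.3 and 90.6), Gpr182 (26.7 and 86.3) and the scavenger receptor gene Stab2 (38.1 and 82.3). Of 12 stellate cell genes 5 were (median -15.3), with Colec11, a soluble collectin, at 25.8 and 95.6 and Lrat, which esterifies retinol for storage, at 59.4 and 87.9. Another 5 of the 12 stellate cell genes ranked higher in colon by any amount, by up to 19.1 points. Of 13 genes common to macrophages of many organs 1 was called on each side (median -10.9, with 10 lower in colon), and of 13 general endothelial genes 2 were called on each side (median -9.42, with 10 lower in colon). The difference between these lists and the liver-resident ones was not tested. The endothelial gene Cd34 ranked 77.9 in colon and 3.16 in liver.

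Blood and lymphocyte genes differed in a few members. Jchain and Igha, of immunoglobulin A secreting plasma cells, ranked 98.9 and 99.1 in colon and 59.3 and 65.8 in liver, and were 2 of the 4 genes of 15 for B cells and plasma cells higher in colon. Of 7 measured genes of T and natural killer cells none was called. All 4 measured red cell genes, of 6 on the array, were higher in liver, and 2 of the 4 were called in all 3 pairs. Each lay under the colon median and entered through the liver array alone, which fixed the direction. Alas2, the heme synthesis enzyme of erythroid cells, ranked 7.13 in colon and 90.4 in liver. Slc4a1 and Hba-a1 ranked only 53.5 and 53.7 in liver, within the range of olfactory receptor probe sets there. Blood left in an organ would be read with its cells. Its share was not tested.

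Transcription factor genes fell on both sides. Of 34 listed factors 9 were higher in colon, 7 in liver, and 18 differed by less than 25 points (median -2.54). Isx, an intestinal homeobox gene, ranked 83.5 in colon and 3.69 in liver, and the epithelial ETS factor genes Ehf and Elf3 91.97 and 31.7, and 95.7 and 39.3. On the liver side were Onecut1 (29.5 and 88.6) and Onecut2 (29.5 and 86.7), regulators of hepatocyte and biliary fate, and Nr0b2, the bile acid responsive repressor SHP (41.5 and 90.8). Hnf4a ranked 98.9 in colon and 98.02 in liver, Foxa1 95.8 and 87.4, and Foxa3 85.5 and 92.9. These endodermal factors were thus high in both organs, whereas Hnf4g ranked 70.7 in colon and 36.5 in liver.

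Posterior patterning genes were higher in colon in 13 of 18 cases and in liver in 1 (median 37.1). The list had 22 genes on the array, and those under both medians were left out. Hoxb13, expressed at the posterior end of the body axis, read 1206 in colon (rank 97.3) and 5.93 in liver (rank 4.07), and its difference in the other pairs was 93.6 and 92.1 points. Hoxa9 ranked 95.4 and 35.6, Hoxa10 88.01 and 12.4, and Hoxb6 82.6 and 2.64. Cdx1, which with Cdx2 specifies intestinal epithelium, ranked 93.005 and 14.7. Cdx1 and the Hox genes named before it lay under the liver median. They entered through the colon array alone, which fixed their direction. Of the 13, 9 were called in all 3 pairs. The other 4 included Hoxb6 and Hoxb5: Hoxb6 stood at 39.3 points in DSS and 16.1 in DSSPAR, and Hoxb5 at 2.84 and 15.9.

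Cell division genes ranked higher in colon. Of 27 genes 19 were at least 25 points higher in colon and none in liver, with a median of 30.1 points. Mki67, a nuclear protein of dividing cells, ranked 90.9 in colon and 29.8 in liver, the mitotic kinase gene Bub1 69.8 and 7.45, and Birc5, survivin, 73.5 and 11.01. The median was 24.0 points in the DSS pair and 20.0 in the DSSPAR pair, and 5 of the 19 were called in all 3 pairs.

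Basic cell machinery lay level by rank, close to the top of both arrays where ranks are compressed. All 31 subunits of oxidative phosphorylation were within 5 points, with median ranks of 98.5 in both tissues. So were 26 of 27 proteasome subunits, 22 of 24 cytosolic ribosomal proteins and 13 of 14 genes of mitochondrial fatty acid oxidation and ketogenesis. None of these 96 genes was called on either side. On intensities divided by the trimmed mean, the respiratory chain gene Ndufa4 stood at -2.66 (log2, colon over liver), the ketone and fatty acid enzyme gene Acat1 at -1.92, and the oxidative phosphorylation list at a median of -0.57, so a level rank is not an equal amount. The 10 level genes of highest rank were Uqcrb, Tpt1, Rps29, Cox6a1, Selenop, Rps14, Rpl13a, Eef1a1, Hint1 and Fth1, all at ranks of at least 99.8 in both arrays. Most serve respiration or translation. Selenop, the selenium carrier of plasma, and Fth1, the heavy chain of the iron store ferritin, were level in rank among them. Of 15 cholesterol synthesis genes 6 lay within 5 points (median -3.54), and 1, the regulator gene Srebf2, was called higher in colon (81.9 and 51.2).

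Related genes were compared in pairs. For 32 pairs of paralogs or enzymes of related activity, a form known from liver was set beside another form, and both were measured in 23. In 4 of the 23 both passed 25 points in opposite directions. Counting differences of any size, the hepatic form was lower and the other form higher in colon in 17, and in 1 the reverse held. These 4 were arginase, with Arg1 at -64.2 and the mitochondrial Arg2 at 36.5 points, and corticosteroid dehydrogenase, with Hsd11b1, which makes active glucocorticoid, at -35.4 and Hsd11b2, which inactivates it, at 84.4. The others were the sodium bile acid cotransporters Slc10a1 (-66.7) and Slc10a2 (25.7), and the phospholipid and drug pumps Abcb4 (-46.8) and Abcb1a (37.03). In glucose metabolism no pair had opposite calls. Pkm, the common pyruvate kinase, stood at 64.2 points and the hepatic Pklr at -23.4, Slc2a1 at 13.7 and the hepatic glucose carrier Slc2a2 at -75.6, and the glycogen synthases Gys1 and Gys2 at 21.4 and -54.9. Fabp2, the intestinal fatty acid binding protein, did not follow its name, at 98.5 in colon and 98.6 in liver, beside Fabp1 at -67.3 points. Ldha and Ldhb, at 0.29 and -0.30, did not separate, and Pfkl, at -2.01, changed sign with the mean over probe sets.

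**Figure D4:**
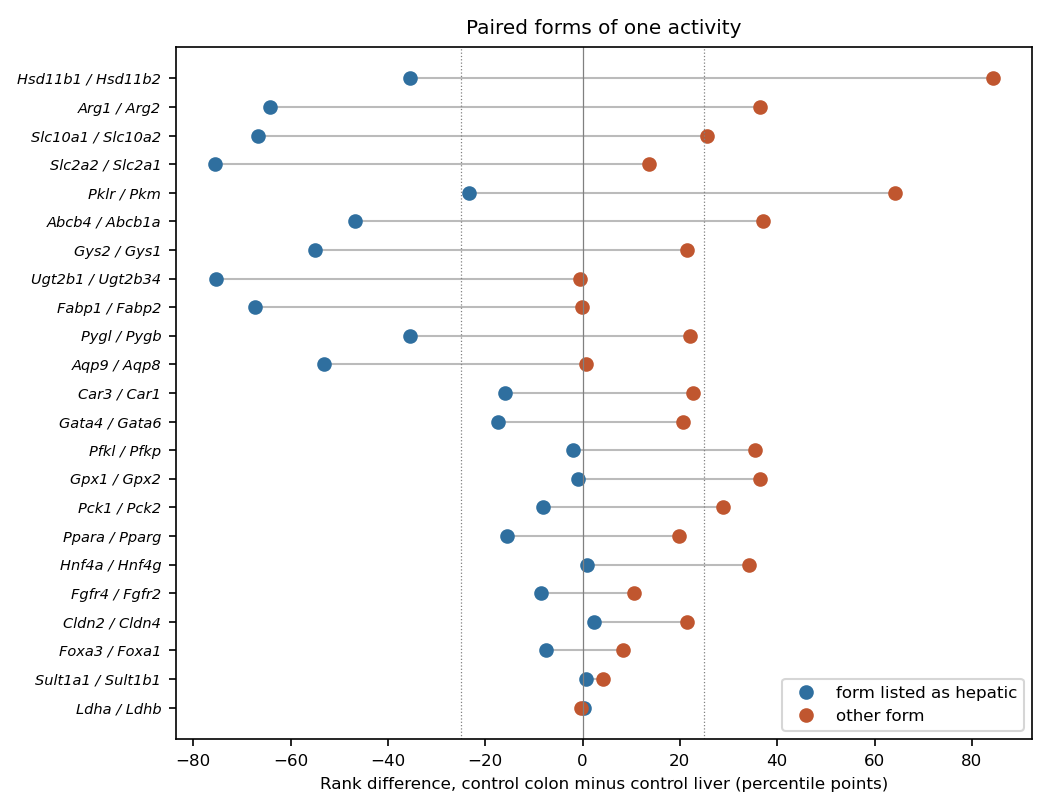
Rank difference, control colon minus control liver in percentile points (x axis), for the 23 pairs of related genes with both members measured; blue points are the forms listed as hepatic and red points the other forms, joined by a line, with dotted lines at 25 points. Hsd11b1 and Hsd11b2 have the widest gap, from -35.4 to 84.4.

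Ranks compress the brightest genes. Between the 98th and the 99th percentile the intensity rose 1.72-fold in control colon and 1.99-fold in control liver, and between the 50th and the 75th 3.87-fold and 3.38-fold. Among genes above both medians and less than 25 points apart, 481 were at least 4-fold higher in colon and 335 at least 4-fold higher in liver once each array was divided by its trimmed mean. Several with large folds were named after their values were seen. Car1 was 70.9-fold higher in colon (ranks 99.8 and 77.1), Lgals3, a galectin, 51.2-fold, and Car2, another carbonic anhydrase, 47.7-fold. Inmt, a methyltransferase gene, was 111-fold higher in liver (76.4 and 99.8), Car3 96.8-fold, the desaturase gene Scd1 70.1-fold and Apoe 39.8-fold (90.7 and 99.9). These folds rest on the scaling. The 9 bacterial and phage control probe sets read 6.86 to 10.1 times higher in the liver array, median 8.44, while the trimmed mean was 4.71 times higher, so scaling on these controls would shift each ratio toward colon by 1.79-fold.

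The DSS and DSSPAR pairs share no array with the control pair, though their mice were treated, and so gave a separate reading of the same tissue difference. On its own the DSS pair had 1261 genes at least 25 points higher in colon and 1347 in liver, and the DSSPAR pair 1205 and 1067. Of the 1242 genes higher in control colon, 1196 were higher in colon in DSS, 1189 in DSSPAR and 665 past 25 points in both. Of the 1456 genes higher in control liver, 1302, 1298 and 624 were. The share depended on brightness. Of genes with a rank above 95 in the brighter tissue, 155 of 175 on the colon side (88.6%) and 224 of 241 on the liver side (92.9%) were called in both other pairs, and none was called in the opposite direction in either. Of liver calls with a liver rank of 50 to 60, 53 of 391 (13.6%) were, and 20 were called in the opposite direction in at least 1 pair. For colon calls of the same ranks the values were 84 of 252 (33.3%) and 2. Statements on dim genes, above all on the liver side, are thus less secure. Within tissues, 1.83% and 1.72% of genes differed by 25 points or more between control and the DSS and DSSPAR colon arrays, against 6.51% and 5.60% in liver.

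**Figure D5:**
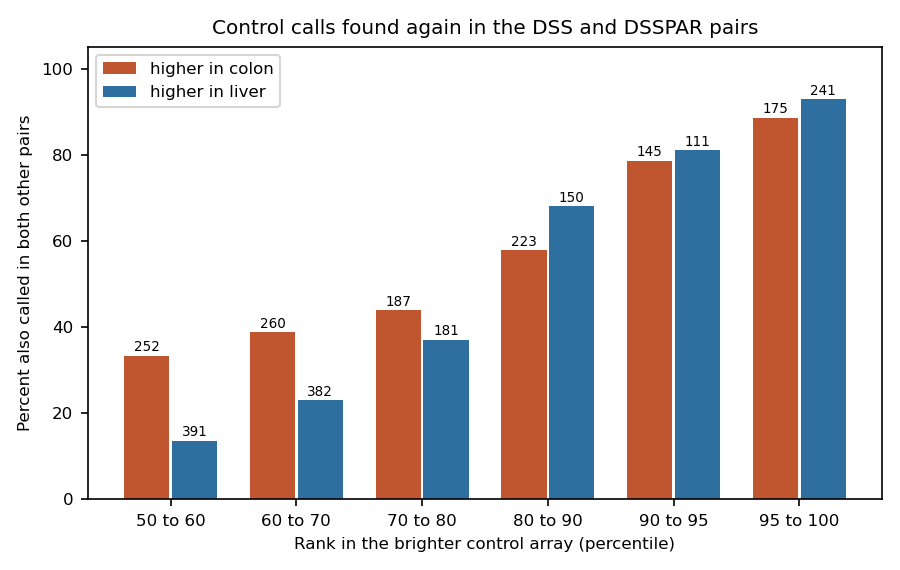
Percent (y axis, from 0) of genes called in the control pair that were also at least 25 points apart in the same direction in both the DSS and the DSSPAR pair, by rank in the brighter control array (x axis), for calls higher in colon (red) and in liver (blue). The number above each bar is the count of control calls, and the share rises from 33.3% to 88.6% for colon and from 13.6% to 92.9% for liver.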

How the data were processed

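The deposited values were linear intensities, 1 for each probe set of an array, made with MAS5 per the submitters' processing notes. For the version and the scaling target, nothing was given in the sources used here. The 3 liver arrays had a trimmed mean of 500.0 each, the colon arrays 106.2 to 111.0. All 6 value columns were matched to samples by sample identifier and 0 were left unused. Of 45101 probe sets 34958 carried 1 symbol, 932 several and 9211 were not listed. A gene was its eligible probe set of highest mean rank over the 2 control arrays. With 1 array per group no test was run. The members, the 46 gene lists and the 32 pairs of related genes were chosen with earlier results of these data known. Named genes were the 20 of highest rank per tissue under the other's median, the 10 brightest level genes, up to 6 members per list by size of difference, cell type markers and the pairs, and predicted models were not named. Anpep, Cldn1, Cp, Glul, Hp, Insl5, Otc, Pax6, Pyy and the genes named for their fold were chosen after their values were seen. Ranking was tested on simulated data. Promoter sequences and coordinates are RefSeq's (GRCm38.p6), the first listed per symbol. Python 3.11.15, NumPy 2.4.6, pandas 2.3.3, SciPy 1.17.1 and matplotlib 3.10.9 were used.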

Additional observations from a re-analysis of the deposited data

Results flagged for a closer look

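In 3 genes the control pair called one tissue higher and both other pairs called the other tissue higher. These differences were not tested. Slc10a2, the intestinal bile acid transporter gene, stood at 25.7 points in CON, -36.7 in DSS and -72.7 in DSSPAR (colon minus liver). Crocc, which encodes a ciliary rootlet protein, stood at -44.97, 26.96 and 37.1 points, and its highest rank in either control array was 54.4. Zfp651, a zinc finger gene, stood at -28.3, 39.35 and 31.9 points, and its highest control rank was 62.7. The ranks of Crocc and Zfp651 lie within the range reached by olfactory receptor probe sets in the liver array, up to 63.8. The part of this in their differences was not tested.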

How the results depend on the processing

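No paired analysis was possible because each group had 1 array and no replicate numbers. Main counts were 1242 genes higher in colon and 1456 higher in liver. They fell to 644 and 683 at 40 points, to 627 and 591 with ranks under 50 raised to 50, and to 664 and 604 with entry above the 75th percentile, each of which leaves fewer genes or smaller gaps by construction. They stayed within 1.5 times with the mean over probe sets, without shared-type probe sets, with ranks among 1-symbol probe sets, with trimmed-mean scaled log2 ratios past 4-fold (1684 and 1370), with quantile-normalized log2 ratios past 4-fold (1486 and 1562), and in the DSS and DSSPAR pairs. Trimmed-mean scaling moved the split toward colon. After the data were seen, a brighter rank above the 95th percentile of olfactory receptor probe sets was added, which kept 1242 and 1067, and all probe sets on 1 side, which kept 1201 and 1442. Within the control pair, no list median or named gene past 25 points changed direction under the alternatives fixed at the start. Between pairs, 7 genes past 25 points that were named by the fixed rules did in at least 1 other pair (Slc10a2, Npy, Cd68, Blk, Cela2a, Prss2 and Slc4a1). So did the intestinal bile acid list (25.7, then -3.02 in DSS and -2.94 in DSSPAR). Outside the fixed rules, Pax6, Crocc and Zfp651 changed direction between pairs as well. Medians of the exocrine pancreas, skeletal muscle, squamous, adipocyte, T cell and oxidative phosphorylation lists, all under 25 points, changed sign under at least 1 of the alternatives fixed at the start. Some named genes under 25 points, such as Sox10 and Ighm, did so too.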

Other observations

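Genes of tissues that could lie beside colon or liver gave the following values. Among 4 measured skeletal muscle genes Acta1, skeletal actin, ranked 65.7 in colon and 21.97 in liver, and its colon side was called in all 3 pairs. By any amount 2 of the 4, from 12 on the array, ranked higher in colon and 2 in liver. Of 9 squamous epithelium genes Krt14, a keratin of stratified epithelium, ranked 79.1 in colon and 48.6 in liver, and it was called on the colon side in the DSS and DSSPAR pairs too. Sprr3, from the same 9, was called higher in liver in the control pair (23.9 and 60.8). By any amount 4 of the 9, from 17 on the array, ranked higher in colon and 5 in liver (median -3.45). Of 6 adipocyte genes Plin4, a lipid droplet protein, ranked 66.4 and 29.2 in CON, with differences of 1.29 and 4.81 points in the other pairs. Over the 6 adipocyte genes that passed the entry rule, of 10 on the array, the median ranks were 75.3 in colon and 73.1 in liver. Among them were Fabp4, a fatty acid binding protein, at 87.1 and 89.9 and the lipase gene Lpl at 87.04 and 91.4. In the DSS colon array the pancreatic enzyme genes Prss2 and Cela2a ranked 91.6 and 91.8, against 32.3 and 19.1 in control colon. Antioxidant and glutathione genes had a median of -0.77 over 26 genes. In this list 2 members were called in colon and 3 in liver, near the 9.41% and 11.0% of all genes. Gpx2, the gastrointestinal glutathione peroxidase, ranked 97.8 and 61.4, Cbr3, a carbonyl reductase, 84.4 and 56.4, Hmox1, heme oxygenase, 36.04 and 73.1, and the glutathione transferase genes Gsta2 and Gsta3 53.3 and 89.3, and 66.5 and 99.1.

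Probe sets of 62 genes were at least 25 points apart in both directions between the tissues. Of 5771 genes with several eligible probe sets, 65.7% had every one on 1 side.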
